A study of Homo sapiens with 6 samples.

Results

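The ligands and receptors that steer growing axons were followed through a map of polyadenylated RNA 3′ ends in cultured IMR-32, a MYCN-amplified line derived from a human neuroblastoma. The genes were taken from the GENCODE annotation by symbol (ephrins, Eph receptors, semaphorins of classes 3 to 7, plexins, neuropilins, netrins, UNC5 receptors, Slits and Robos), keeping protein-coding genes shorter than 1 Mb. Of 19962 protein-coding genes under that length, 69 were members. They held 1129 of the 200023 peaks of the list, counting every peak whose summit lay in the gene or up to 4 kb past its 3′ end. EPHA6 at 947 kb was the longest gene kept, while ROBO1 at 1171 kb and ROBO2 at 1743 kb were over the limit and were not analysed here. UNC50, which also carries a matching symbol, encodes a Golgi membrane protein and not a netrin receptor. It is counted in the totals over the 69 genes and kept out of the UNC5 family.

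The map was built from 6 libraries, 2 from each of 3 groups: DMSO, THZ531 for 2 h, and THZ531 for 6 h. The dose was 400 nM at both times. THZ531 binds CDK12 and CDK13 covalently and blocks their kinase activity. The labels name no genetic change, so all groups were the same line. The peaks were called once on merged reads, so each value below describes the merged libraries. The treatments could not be compared, and no replicate error can be given. The height of a peak is the number of reads piled up at its summit. The tallest peak of the whole list had 200 reads, which is also the most that 100 bp extended reads allow if each start position on each of 2 strands counts once. Whether repeated starts were dropped is not given in the sources used here, and if they were, heights compress differences between abundant transcripts. Unless stated otherwise, values are for the 767 member peaks with a −log10 q of at least 5. All 9 markers of adrenergic neuroblastoma cells reported here (among them DBH, CHGA and MYCN) had a transcript-end peak, at 19 to 123 reads, and none of 10 markers of blood, endothelial, epithelial, mesenchymal and liver cells had one.

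Axon guidance relies on secreted or membrane-bound cues read by receptors on the growth cone. Ephrins bind Eph receptor tyrosine kinases, semaphorins act through plexins with neuropilins as co-receptors for class 3, netrins attract or repel through DCC and UNC5 receptors, and Slits repel through Robos. Several of these genes carry very long introns, and several receptors, the neuropilins among them, are known to be made also in shortened soluble forms.

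Sequences at the sites that carry the main result are given first. A transcript is usually cut shortly after a hexamer such as AATAAA. The lines below show 150 bases of GRCh38 in the direction of the gene, 100 up to the 3′ edge of a peak and 50 after it, for 2 of the intronic peaks with AATAAA among the 10 tallest intronic peaks that have no gene on the other strand, with AATAAA in capitals. In UNC5C the AATAAA starts 54 bases before the edge. In SLIT3 a GATAAA that starts 26 bases before the edge, not in capitals, lies nearer to it than the AATAAA.
SLIT3 intron 14 (− strand, peak chr5:168767360-168767506, 42 reads): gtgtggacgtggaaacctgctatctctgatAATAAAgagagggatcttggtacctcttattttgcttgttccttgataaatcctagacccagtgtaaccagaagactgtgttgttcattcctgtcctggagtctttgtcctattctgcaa
UNC5C intron 1 (− strand, peak chr4:95546747-95546926, 42 reads): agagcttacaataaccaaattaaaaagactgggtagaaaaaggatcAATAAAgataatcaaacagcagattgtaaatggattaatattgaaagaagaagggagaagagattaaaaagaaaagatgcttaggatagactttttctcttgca

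At the transcript ends themselves, 30 bases up to the 3′ edge of the peak are shown for sites where a hexamer, in capitals, falls inside them. They cover an ephrin pair and the neuropilins, whose internal ends are described further on, and in the first NRP1 line AGTAAA and AATACA overlap.
EFNB1 end (+ strand, peak chrX:68841975-68842162, 58 reads): ACTAAAaaaaaaaaattaaccacatggaga
EFNB3 end (+ strand, peak chr17:7711233-7711378, 37 reads): aaAATAAAaaacttcaaaagttgacaagaa
NRP2 end (+ strand, peak chr2:205797810-205798139, 34 reads): taAATAAAcattataccagagatatttttc
NRP1 intron 12 (− strand, peak chr10:33194374-33194481, 14 reads): gtaatgtattaacaaAGTAAATACAggcag
NRP1 intron 6 (− strand, peak chr10:33249108-33249209, 11 reads): acttttctctgATTAAAatgccaggagaca
NRP1 internal end (− strand, peak chr10:33197621-33197725, 14 reads): ggtatcaAATAAAatacgaaatgtgacaga
NRP2 intron 15 (+ strand, peak chr2:205779611-205779711, 10 reads): gaatgtAATAAAatgatgatatttttatac

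Most of the axon guidance genes had an RNA 3′ end in these cells. A peak at an annotated transcript end, from 200 bp before to 600 bp past it, was found for 56 of 69 genes (81.2%, 95% Wilson interval 70.4 to 88.6%), against 64.1% of all genes under 1 Mb. These ends include annotated ends inside the coding region. At the end of the canonical transcript alone a peak was found for 47 of 69 genes (68.1%), against 53.6% of all genes. Intervals here and below cover counting error only. The tallest such peak of a detected member had a median of 18.5 reads (quartiles 12 and 27), lower than the median of 25 reads (quartiles 17 and 36) over the 12790 detected genes. In a merged map of a whole culture, fewer cells with a transcript and less RNA in each cell cannot be told apart.

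The tallest ends were those of a Slit, an ephrin-B, a class 4 semaphorin and an UNC5 gene. SLIT3, a secreted repellent, had the tallest end at 60 reads, 4.4 kb before the end of its canonical transcript (chr5:168665999-168666447), and 40 reads at the canonical end. ENSG00000254192 runs on the opposite strand there and the list has no strand, so its reads cannot be separated from those of SLIT3. EFNB1, a transmembrane ephrin, had 58 reads at its end. SEMA4C, a transmembrane semaphorin that binds plexin-B receptors, had 54. UNC5B, a netrin receptor, had 53. EFNB3 and the semaphorin receptor PLXNA1 had 37 each, the PLXNA1 peak being 1.8 kb before the annotated end. SEMA4G also had 37, at a site past its end that MRPL43 on the other strand also covers. NRP2 had 34 and SEMA6C 33.

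Some receptors for ephrins had no end in the map. A transcript-end peak was found for 8 of 14 Eph genes, against 64.1% of all genes under 1 Mb. This difference was not tested. EPHB2 (30 reads, at an end 6.9 kb before the gene's last base) and EPHB3 (28 reads) were the tallest. The EphA genes detected had 9 to 17 reads, EPHA7 being highest. EPHA3, EPHA4, EPHA6 and EPHB1 had intronic peaks but no transcript-end peak, and EPHA1 and EPHB6 had peaks only below the q threshold. EPHA6 had a peak of 18 reads 1.8 kb past its annotated end, with a hexamer. Among their ligands, 4 of 6 ephrin-A entries and 3 of 3 ephrin-B genes were detected. EFNA5 was the tallest ephrin-A at 25 reads and EFNB2 the lowest ephrin-B at 9. EFNA4-EFNA3, a readthrough of the 2 neighbouring genes, had no end of its own, and EFNA1 had none: its 3 downstream peaks (22, 22 and 27 reads) all lie in SLC50A1.

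Semaphorins and their receptors were nearly all present. Ends were found for 18 of 20 semaphorins, the exceptions being SEMA3C and SEMA3E, and for 9 of 9 plexins and both neuropilins. Class 3 semaphorins, which are secreted, had 8 to 27 reads at their tallest end, with SEMA3B highest. Class 4 had 17 to 54 and class 6 had 10 to 33. SEMA5A had 27, SEMA5B 8 and the membrane-anchored SEMA7A 8. Among the plexins, PLXNA3 followed PLXNA1 with 28 reads, and PLXNB1 led the plexins B to D with 19.

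A transcript-end peak was found for 2 of 4 netrins and 1 of 2 Robos, against 64.1% of all genes under 1 Mb. Counts this small were not tested. NTN1, the classical floor-plate attractant, had 8 reads at its end and NTN4 had 14. NTN3 had no end of its own, since its 2 downstream peaks lie in TBC1D24, and NTN5 had no peak at any threshold. The netrin receptors of the UNC5 family were all detected, UNC5A and UNC5C with 21 reads each and UNC5D with 12, as was the related UNC5CL with 17. ROBO3 had 23 reads at its end. ROBO4 lies tail to tail with ROBO3, and its only peak is that same ROBO3 peak. SLIT1 had 21 reads and SLIT2 19. UNC50 had 27 reads. Of 66 other genes of the pathway under 1 Mb (other receptors, cues and adhesion molecules, adaptors, kinases and cytoskeletal regulators), 62 had a transcript-end peak, at 7 to 70 reads. ABLIM3, DSCAML1, FLRT3 and NTNG2 did not.

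**Figure D1:**
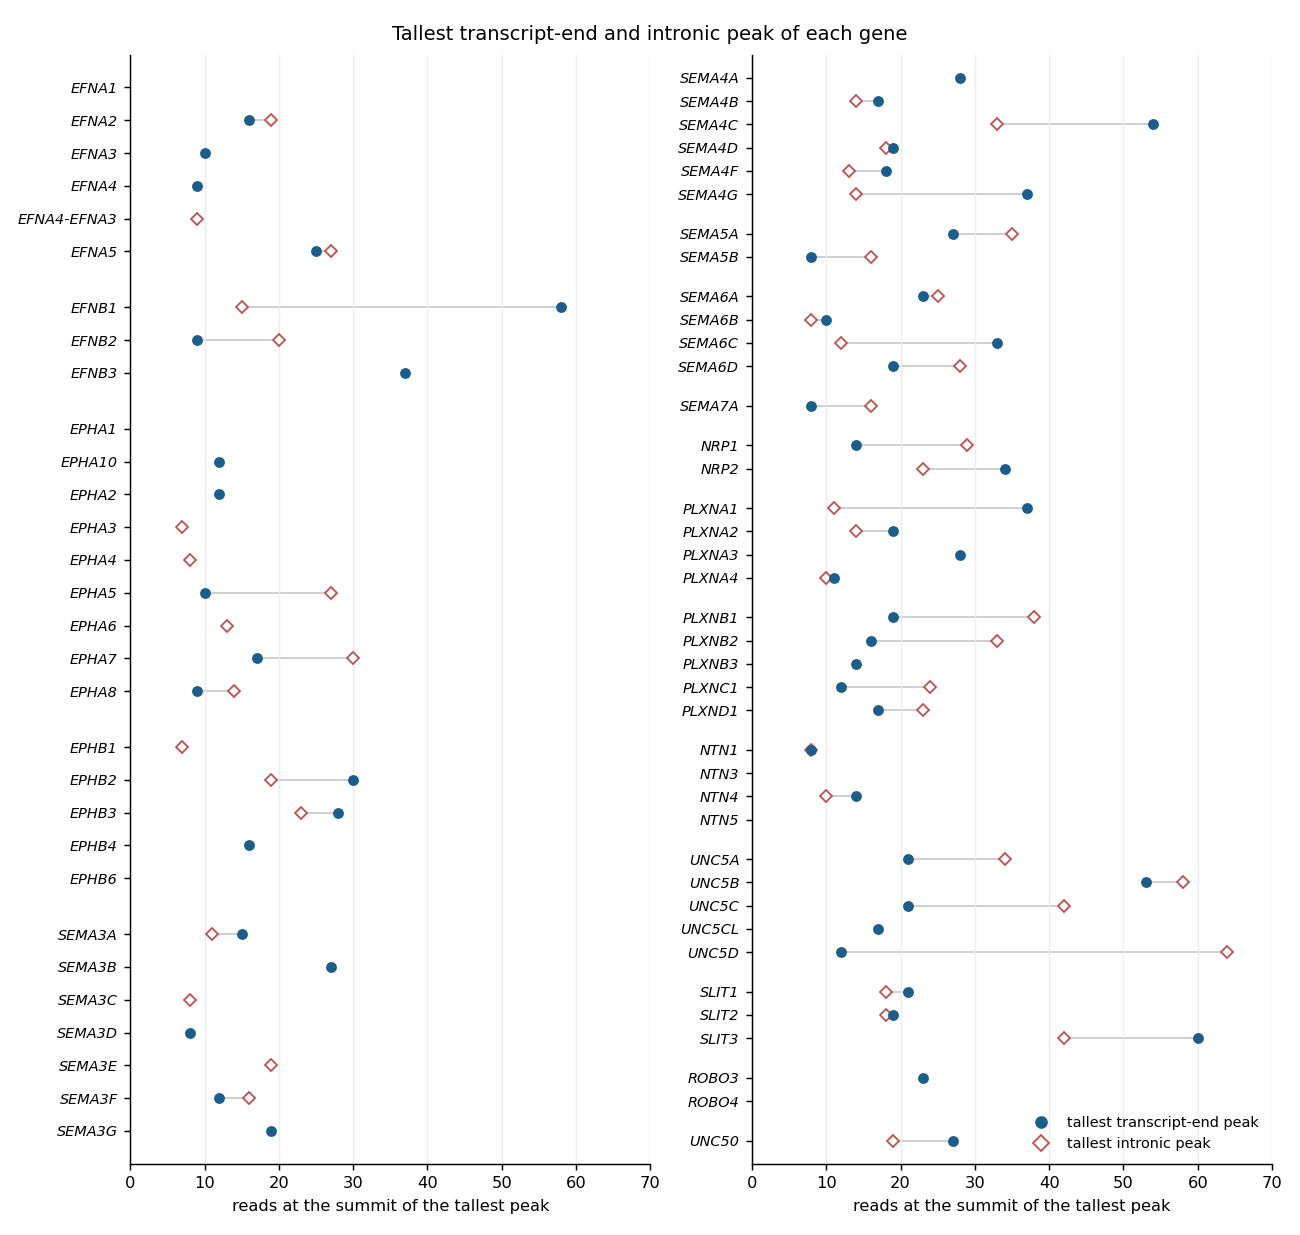
Reads at the summit of the tallest transcript-end peak (filled circles) and the tallest intronic peak (open diamonds) for each of the 69 genes, grouped by family; a missing symbol means no such peak at a −log10 q of at least 5. In 4 of the 5 UNC5 genes and in several Eph receptors and plexins the diamond lies to the right of the circle, in UNC5D at 64 against 12 reads and in UNC5B at only 58 against 53.

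Most of the peaks in these genes were not at transcript ends. Introns held 602 of 770 gene-peak pairs (78.2%, interval 75.1 to 81.0%), against 63.4% over all genes, while transcript ends held 97 pairs (12.6%), exons 51 and the downstream flank 20. With −log10 q of at least 20, 29 intronic peaks were left and the intronic share was 48.3%. Pairs exceed peaks because 3 peaks fell in 2 member genes. At least 1 intronic peak was found in 49 of 69 members (71.0%, interval 59.4 to 80.4%). The share was 62.1% of all genes with an intron, which lies inside the interval. Members were longer, with a median of 51.3 kb against 27.3 kb for all genes. Intronic peaks were lower than transcript-end peaks, with medians of 10.5 and 15 reads. The number of intronic peaks followed gene length across the 69 members (Spearman's rho 0.69, and 0.67 across 18845 genes). This is a description across genes, which are not replicates.

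A few long genes held most of them. SEMA6D, a transmembrane semaphorin of 590 kb, had 88 intronic peaks, SLIT3 (639 kb) 61, UNC5C (387 kb) 59, the GPI-anchored ligand EFNA5 (294 kb) 53 and SEMA5A (511 kb) 49. These 5 genes held 310 of the 602 (51.5%). EPHA5 had 31, NRP1 and SLIT2 had 27 each, and EPHA7 and SLIT1 had 19 each. Of the 12 members of 300 kb or more, 6 had fewer than 10 intronic peaks. EPHA6 (947 kb) had 9, PLXNA4 (525 kb) 8, SEMA3A (537 kb) 5, UNC5D (561 kb) 2, and EPHB1 (465 kb) and EPHA3 (375 kb) 1 each. The 3 Eph genes among them had no transcript-end peak, while PLXNA4, SEMA3A and UNC5D had ends of 11, 15 and 12 reads. The other 6 long genes had 27 to 88 intronic peaks and ends of 10 to 60 reads.

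**Figure D2:**
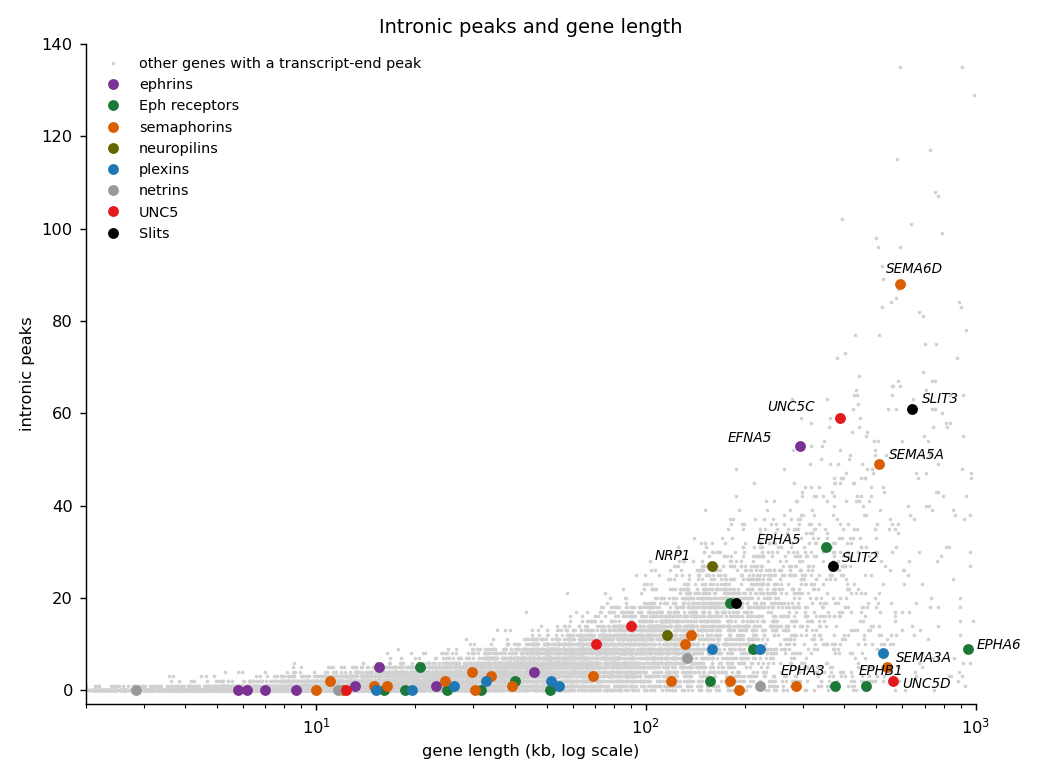
Number of intronic peaks against gene length (log scale) for the axon guidance genes other than ROBO3, ROBO4 and UNC50, coloured by family, over the 12468 other genes with an intron and a transcript-end peak (grey). SEMA6D with 88 peaks and UNC5C with 59 sit high among genes of their length, while EPHA6, UNC5D, EPHB1 and EPHA3 lie along the bottom.

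Against detected genes of like length, the detected members had fewer intronic peaks in 3 of 4 length ranges. Below 30 kb, 20 members had a median of 0.5 intronic peaks and 0.114 per kb of intron, against 1 and 0.133 for all genes. From 30 to 100 kb, 13 members had a median of 2 and 0.0755 per kb, against 5 and 0.113. From 100 to 300 kb, 14 members had a median of 9.5 and 0.0815 per kb, against 13 and 0.0890. From 300 kb to 1 Mb, 9 members had a median of 31 and 0.0756 per kb, against 24.5 and 0.0623. These differences were not tested. The values by family count all members, with or without a transcript-end peak. Class 3 semaphorins had 11 peaks in 1203 kb of intron (0.00915 per kb), fewer per kb than any other family with an intronic peak. Eph receptors had 0.0285 per kb, plexins 0.0317, UNC5 genes 0.0783, Slits 0.0921, neuropilins 0.156 and ephrins 0.163, with 53 of the 64 ephrin peaks in EFNA5. The Eph receptors without a transcript-end peak had 0 to 0.0135 per kb each, and the 8 with one had 0 to 0.311. The densest single genes with at least 3 intronic peaks were EFNA2 (5 peaks, 0.381 per kb), EPHB3 (5 peaks, 0.311), EFNA5 (0.184), NRP1 (0.183) and SEMA4F (4 peaks, 0.171).

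**Figure D3:**
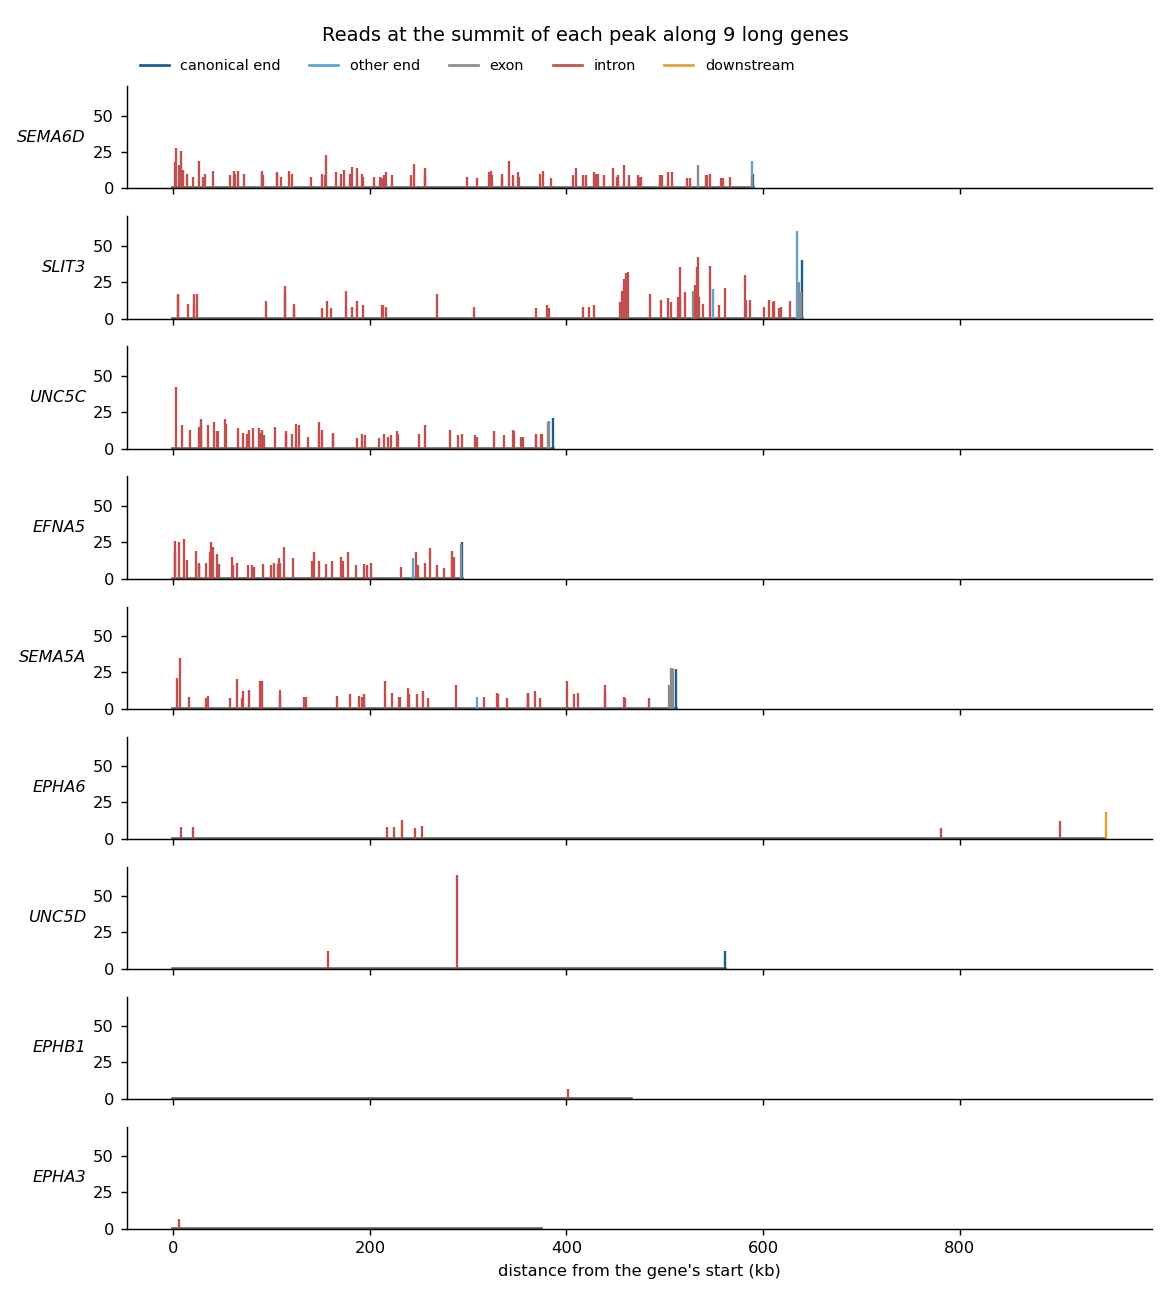
Reads at the summit of every peak along 9 long genes, by distance from the gene's start in kb and coloured by class; the dark baseline is the gene. Peaks run along the whole of SEMA6D, UNC5C, EFNA5 and SEMA5A, become taller in the later part of SLIT3, and are few in EPHA6, UNC5D, EPHB1 and EPHA3.

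Within genes, intronic peaks were spread largely as the intron bases were. The first intron held 182 of 516 intronic peaks that lie in an intron of the canonical transcript (35.3%, interval 31.3 to 39.5%), against 31.6% over all genes. Weighted by peaks, first introns make up 31.6% of the members' canonical intron bases and 26.4% of those of all genes. EFNA5 intron 1, which is 243 kb long and 84.2% of the intron bases, held 43 of 53 peaks. UNC5C intron 1 (213 kb) held 37 of 59, UNC5B intron 1 (66.8 kb) 12 of 14, and UNC5A intron 1 all 10. SLIT2 intron 4 (199 kb, 55.1% of intron bases) held 19 of 27. SLIT3 was uneven: its 310 kb intron 4 is 49.3% of the intron bases and held 20 of 61 peaks, while its 10.1 kb intron 14 held 4, the tallest of 42 reads. In SEMA6D the canonical transcript covers only the last 56.7 kb, so 82 of its 88 intronic peaks lie upstream of it, in introns of longer transcripts.

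In 21 of 56 detected genes (37.5%, interval 26.0 to 50.6%) the tallest intronic peak exceeded the tallest transcript-end peak, against 26.9% of all detected genes. The background lies inside the interval. It is not matched for length: detected members had a median length of 51.4 kb, against 34.8 kb for all detected genes. Longer genes had more intronic peaks from which the tallest was taken. UNC5 receptors were the clearest family, with 4 of 5. UNC5D had 64 reads in intron 1 (chr8:35523580-35523787), 288 kb from its start and 32.3-fold over local background, and 12 at its end. UNC5C had 42 and 21, UNC5A 34 and 21, and UNC5B 58 and 53. UNC5B differed from UNC5D in background: its 5 tallest intron 1 peaks (58, 49, 47, 45 and 38 reads) lie 3.3 to 15.8 kb from the start and are 4.40 to 8.91-fold over local background. UNC5B-AS1 runs on the opposite strand at the peak of 49 reads.

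Among the other families, 4 of 9 plexins were in this group, PLXNB1 (38 against 19), PLXNB2 (33 against 16), PLXNC1 (24 against 12) and PLXND1 (23 against 17). The Eph receptors EPHA5 (27 against 10), EPHA7 (30 against 17) and EPHA8 (14 against 9) were too. The ephrins were EFNB2 (20 against 9), EFNA2 (19 against 16) and EFNA5 (27 against 25). The semaphorins were SEMA5A (35 against 27), SEMA6D (28 against 19), SEMA6A (25 against 23), SEMA3F (16 against 12), and SEMA5B and SEMA7A (16 against 8 each). NRP1 had 29 against 14, but its last-exon peaks of 22, 20 and 21 reads counted as exonic. In NRP1, EPHA8 and SEMA5B the only transcript-end peaks were at annotated ends inside the coding region. No Slit and neither netrin with an end was in this group. SLIT3 had intronic peaks of 42, 36, 35 and 35 reads, in introns 14, 16, 12 and 14. It stayed out through its end of 60 reads, where reads of ENSG00000254192 on the opposite strand cannot be separated. Its canonical end had 40 reads, fewer than its tallest intronic peak. The margin was only 2 to 6 reads in EFNA5, SEMA6A, EFNA2, SEMA3F, UNC5B, EPHA8 and PLXND1, near or below the square root of the summed reads.

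Sequence around the peaks was scored for 12 hexamers (the canonical AATAAA, then ATTAAA as the next most used, and also the rarer AAGAAA or CATAAA or AATGAA or AATAGA or TATAAA or ACTAAA or AATATA or GATAAA or AATACA or AGTAAA) on the gene's strand, in the 100 bases up to the 3′ edge. Overlapping matches counted once. Of 602 intronic member peaks, 382 had a hexamer (63.5%, interval 59.5 to 67.2%), against 57.0% of all intronic peaks. In genes of 100 kb or more the shares were 64.3% and 58.7%. AATAAA itself was present at 30.7% of intronic member peaks against 26.4%. Transcript-end peaks had a hexamer more often, at 82 of 97 (84.5%, interval 76.0 to 90.4%), close to the 79.2% of all transcript-end peaks, and AATAAA at 55.7% against 47.3%. With the subfamilies pooled, the intronic counts were 63 of 85 in UNC5 genes, 71 of 107 in Slits, 120 of 186 in semaphorins, 20 of 32 in plexins, 23 of 39 in neuropilins, 46 of 79 in Eph receptors and 34 of 64 in ephrins. SEMA6D had a hexamer at 64 of 88 intronic peaks and UNC5C at 45 of 59. SLIT3 had 37 of 61, SEMA5A 32 of 49 and EFNA5 28 of 53. These 5 genes held 310 of the 602 intronic peaks. The intervals treat peaks of the same gene as independent. Whether the higher intronic share holds across the member genes was not tested.

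Some intronic peaks sat beside a genomic run of A, where an oligo(dT) primer can bind without a poly(A) tail. At least 22 of 25 bases were A within 50 bp downstream of 28 intronic member peaks (4.65%), against 5.49% of all intronic peaks. With at least 18 of 25 the share was 29.1% (interval 25.6 to 32.8%) against 26.6%, and 9.28% at the members' transcript ends. NRP1 stood at 15 of 27 by the looser count, NTN4 at 5 of 7 and SEMA6D at 26 of 88, while none of the 20 tallest intronic peaks reached 18. The tallest with 22 or more was a site of 17 reads in UNC5C intron 1, which had no hexamer. Priming inside a transcript at such runs and true cleavage cannot be told apart from these values.

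**Figure D4:**
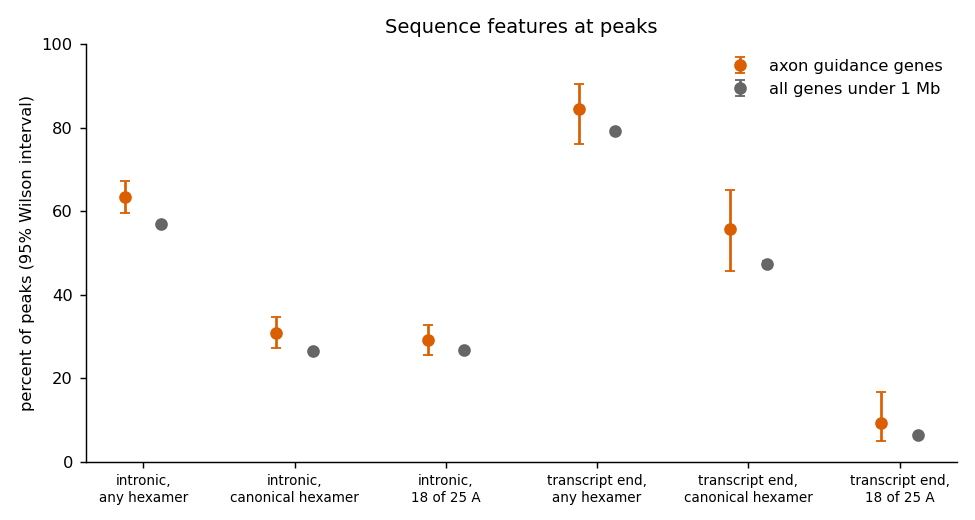
Percent of intronic and transcript-end peaks with any of the 12 hexamers, with AATAAA (canonical hexamer), or with at least 18 A in 25 bases downstream, for the axon guidance genes and all genes under 1 Mb; bars are 95% Wilson intervals. Transcript ends have more hexamers than introns in both sets, and the members' shares lie a few points above those of all genes.

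Some peaks fell at annotated ends short of the last canonical codon. The counts below include ends that also precede the first codon, as in SEMA6A. In 17 of 69 member genes (24.6%), 29 peaks (8 to 31 reads) fell at an annotated end that precedes the last codon of the canonical transcript, close to the 23.5% of all genes. They were 3.77% of the members' gene-peak pairs, against 6.17% over all genes. The neuropilins held 9 of them. NRP1, a co-receptor for class 3 semaphorins and VEGF, had ends in intron 12 and at a nearby site (14 reads each), both after 641 of 923 codons, and in intron 6 after 327 codons (11 reads). Its last exon held 3 peaks of 22, 20 and 21 reads. The last of these reaches the gene's end at position 33177492 but has its summit 318 bp before it, so it counted as exonic. NRP2 had 34 reads at its canonical end, 31 in intron 15 after 808 of 926 codons, 18 in intron 9 after 547 codons, and 9 to 13 at 4 more internal ends. Of the 9 internal ends, 3 lay beside a genomic run of at least 18 A in 25 bases, the NRP1 site in intron 6 (24 of 25) and NRP2 sites of 9 reads each in intron 15 (20 of 25) and intron 2 (18 of 25, with no hexamer). SEMA4A had its tallest peak, 28 reads, at an end in intron 9 after 327 of 761 codons. PLXNA2 had 18 reads at an end in intron 3 after 457 of 1894 codons, and SLIT3 20 reads in intron 18 after 657 of 1523.

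**Figure D5:**
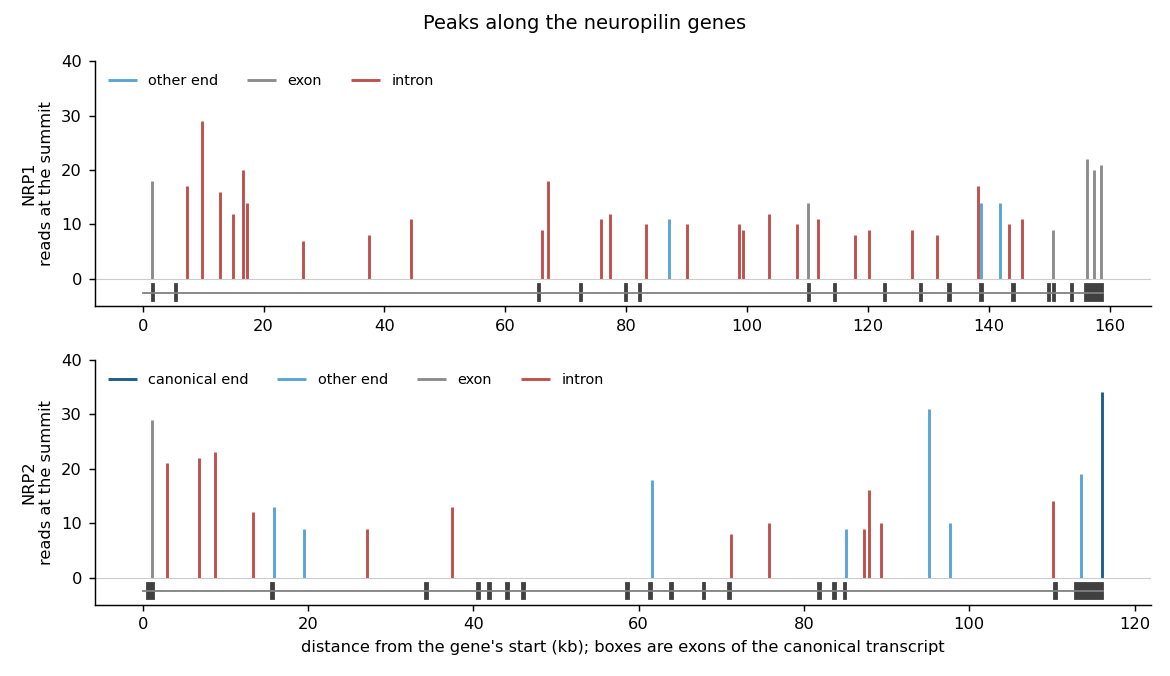
Reads at the summit of each peak along NRP1 and NRP2, by distance from the gene's start in kb and coloured by class; boxes are exons of the canonical transcript. The NRP2 ends of 31 and 18 reads lie far before the canonical end of 34 reads, and the 3 last-exon peaks of NRP1 stand at 20 to 22 reads.

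The position of these sites was set against the membrane segment of the receptors and transmembrane ligands. For 46 genes with a single expected segment, the canonical coding sequence was translated and the most hydrophobic window of 19 residues was taken as the segment, leaving out the first 60 residues. Of 327 intronic peaks in canonical introns of these genes, 295 lay before the segment (90.2%, interval 86.5 to 93.0%). Weighted by peaks, 90.7% of their intron bases lie before it, so the peaks were placed as the bases are. Of 25 internal annotated ends with a peak, 21 lay before the segment, among them all 9 in the neuropilins. The exceptions were PLXNB1 (1 end), PLXNC1 (2 ends) and PLXND1 (1 end). The SEMA6A end, counted as before the segment, also precedes the first codon. In the neuropilins the segment is centred at residues 866 (NRP1) and 869 (NRP2), and 100% of the canonical intron bases lie before it. An end in any of those introns would thus fall before the segment. No share of this kind was worked out for annotated ends. In UNC5C, 50 of 59 intronic peaks lay before the segment, in EPHA5 25 of 31, and in SEMA5A 49 of 49. Of their intron bases, 86.9%, 76.9% and 99.7% lie before it.

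Beyond the annotated ends, 14 of 69 genes (20.3%, interval 12.5 to 31.2%) had a peak 600 to 4000 bp past the gene's last base, against 26.1% of all genes. For EFNA1, NTN3, ROBO4 and EFNA4-EFNA3 the site belongs to a neighbouring gene named above. The SEMA4D peaks of 40 and 27 reads lie over SECISBP2 on the other strand, and those of SLIT1 (23 and 10 reads) over LCOR, of UNC5A (12 and 10 reads) over HK3 and of SEMA4B (19 reads) over CIB1. Of the rest, EFNB1 had 17 reads, EPHA6 18, SEMA6C 14, SEMA4F 13, PLXNA1 10 and PLXND1 8.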

How the data were processed

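QuantSeq 3′ REV libraries from IMR-32 cells (2 each of DMSO, THZ531 2 h and THZ531 6 h) were trimmed, aligned with STAR 2.5.1b to GRCh38, merged and passed to MACS2 2.1.1 by the authors. The 1 deposited table holds for each peak the fold over local background (a ratio), −log10 p and q values and the summit offset, with no strand and no value per library. Reads per library were not analysed here, so depth is unknown and no test between treatments was possible. Here, reads at the summit were recovered from the fold and −log10 p (largest misfit 0.000172), peaks were assigned to GENCODE 44 genes by summit, and hexamers and A runs were read from GRCh38. The order of classes was canonical end, other end, exon, intron, downstream. Shares carry 95% Wilson intervals. Python 3.11.15, pandas 2.3.3 and SciPy 1.17.1 were used, and the recovery was tested on simulated data (100% of 5000 peaks). Genes named with values are, per family, the tallest end, the most intronic peaks and the members without peaks, then the 10 tallest ends and 10 tallest intronic peaks, the 5 densest genes and genes with a taller intronic peak; others were named after their values were seen. The members and lists were chosen with earlier results of these data known. A marker gene of the fixed list and some sequences are not reported here.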

Additional observations from a re-analysis of the deposited data

How the results depend on the processing

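No paired analysis was possible because the merged list carries no replicate. Of 35 recomputed values, 3 were chosen after seeing the data (class set by the 3′ edge: 56 detected genes, 605 intronic peaks and 22 genes with a taller intronic peak). With all peaks of the list and no q threshold, intronic peaks numbered 920, the intronic share was 81.3% and the hexamer share 58.9%. With −log10 q of at least 20, 18 genes had a transcript-end peak, 29 intronic peaks were left (48.3% of pairs), 72.4% of these had a hexamer, 0 had 22 A, 3 genes had a taller intronic peak and 2 had a downstream peak. AATAAA alone gave 30.7% and a window of 10 to 40 bp before the edge 42.9%; the looser A count gave 29.1%. Without sites that have a gene on the other strand, 9 genes had a downstream peak. The remaining values moved by less than 1.5 times or stayed in the interval. The list is pooled over treatments, so a site present after THZ531 alone and a site present in all libraries look the same.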

Other observations

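Intronic peaks near the start of the axon guidance genes were taller than those farther in, a contrast chosen after the values were seen. Within 20 kb of the start the 102 intronic peaks had a median of 16 reads (quartiles 11.2 and 22), and the 500 beyond it a median of 10 (quartiles 8 and 13). All genes under 1 Mb had medians of 16 and 11. In 10 of 15 members with at least 10 intronic peaks the tallest lay within 20 kb of the start, UNC5C at 2.37 kb, SEMA6D at 3.09 kb, EPHA7 at 3.30 kb and SEMA5A at 7.06 kb among them, against 45.3% of 2574 genes (members' interval 41.7 to 84.8%). SLIT3 was an exception, with its tallest intronic peak 534 kb from the start. In the last exons of UNC5B, SEMA5A (where ENSG00000250619 runs on the opposite strand) and PLXNA4, peaks of 35, 28 and 27 reads lay 2.99, 4.36 and 5.01 kb before the annotated end, and 36 of the 51 exonic member peaks lay past the last canonical codon (70.6%), against 50.2% of exonic peaks of all genes.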
